A study of Gallus gallus with 2 samples.

Results

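The contractile genes of smooth muscle were examined in RNA-seq libraries of chicken testis cells after interference with LSD1. They were chosen by gene name as 10 genes, namely ACTA2, ACTG2, MYH11, TAGLN, CNN1, MYL9, DES, MYLK, TPM1 and CALD1, and 8 of these names were found among the 26656 rows of the tables. No row carries the name ACTA2 or CNN1, so these 2 genes are not analysed here under their own names. The cells are labelled as spermatogenic stem cells (SSCs) and came from embryonic testes (18.5 days) digested with collagenase and then trypsin, and were cultured in DMEM with 10% FBS. The shLSD1 cells received an interference vector against LSD1, a histone demethylase of H3K4, and the Blank cells received no vector, so the transfection and the interference cannot be told apart. Each group is 1 library, and no difference has a replicate check. The totals were 8245826 reads in shLSD1 and 8731455 reads in Blank. The row of the target, named KDM1A in the files, holds 0 reads in both, as does a same-strand model over it, so these counts gave no check of the interference.

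In smooth muscle, calcium bound to calmodulin switches on myosin light chain kinase, which phosphorylates the regulatory light chain and lets smooth muscle myosin pull on actin filaments. Tropomyosin, caldesmon, calponin and transgelin sit on or bind these actin filaments, and desmin filaments link the contractile units to each other. In the testis this programme marks the peritubular myoid cells, the flat contractile cells around the seminiferous cords, and the muscle of vessels. Several of the genes, MYLK, TPM1 and CALD1 among them, also make shorter or longer forms that cells other than muscle use, and counts per gene do not separate these forms. In bulk samples, fewer cells of a type and less RNA per cell cannot be told apart.

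Of the 8 named rows, 4 had at least 20 reads over both libraries, 2 had 1 to 19 reads and 2 were listed at 0 in each library. A further model overlaps 6 of the 8 rows on the same strand, and MYLK and DES are the rows without one. For 3 of these 6 the model matches the row with a reciprocal overlap of at least 90%. Among protein-coding genes, 64.3% of those matched in this way by a same-strand model were listed at 0, against 14.7% of those with no overlap. With an overlap on the opposite strand alone the share was 10.3%. The level of a covered gene therefore cannot be read from its own row, and each covered gene is given below with the reads of its overlapping model. Reads that fit both the row and the model may have been counted on neither. Row and model together can thus also fall short of the level, and the size of such a loss was not tested.

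**Figure D1:**
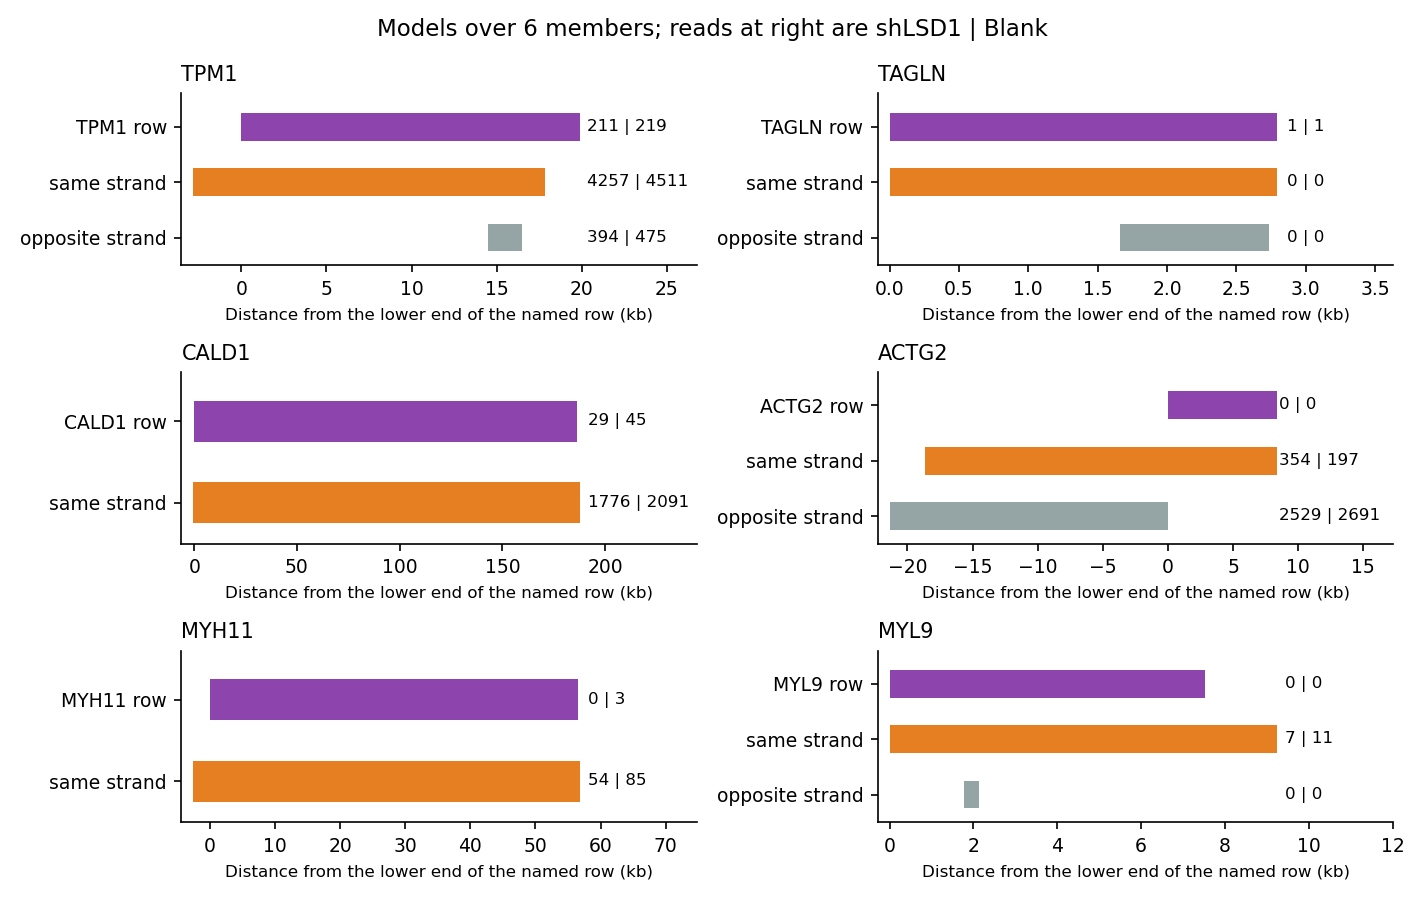
Extent of the named row (purple), the same-strand model (orange) and the opposite-strand model (grey) at the 6 covered genes, as distance in kb from the lower end of the named row, with reads in shLSD1 and then Blank at the right. At TPM1, CALD1, MYH11, MYL9 and the row named ACTG2 the same-strand model holds more reads than the named row, while at TAGLN the model has the same extent as the row and 0 reads.

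The reads of the named rows came mostly from MYLK, with 3857 in shLSD1 and 4122 in Blank, so their sum says little of the other genes. That sum was 4824 in shLSD1 and 4991 in Blank, a log2 ratio of shLSD1 to Blank of 0.033 with a Clopper-Pearson 95% interval of -0.024 to 0.091. Such intervals cover counting error only and compare the 2 libraries, not the treatments. Of the 4 rows with at least 20 reads, 0 lay 1.5-fold or more apart in either direction. Over all 12081 rows with at least 20 reads, 13.5% did (7.04% higher and 6.46% lower in shLSD1), so a count of 0 among 4 rows is near the background. The median log2 ratio of the 4 rows was 0.0077, with a range of -0.54 to 0.35, against a median of -0.011 over all such rows.

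MYLK (ENSGALG00000011708, chromosome 7 from 26674970 to 26859021, minus strand) encodes myosin light chain kinase, the enzyme that starts contraction. It had 3857 reads in shLSD1 and 4122 reads in Blank, or 468 CPM in shLSD1 and 472 CPM in Blank (counts scaled to the total of the library). The log2 ratio was -0.013 (95% interval -0.077 to 0.050), so the libraries lay within counting error of each other, and the interval holds no change beyond 0.08 in either direction. No other model overlaps MYLK, which makes it the best measured of the 8 rows.

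DES (ENSGALG00000011306, chromosome 7 from 21670394 to 21673766, minus strand) encodes desmin, the intermediate filament protein of muscle. It had 726 reads in shLSD1 and 601 reads in Blank, or 88.0 CPM in shLSD1 and 68.8 CPM in Blank. The log2 ratio of 0.35 (95% interval 0.20 to 0.51) was above 0 by more than counting error and under 1.5-fold. The row of DNPEP covers DES on the opposite strand and is listed at 0 reads in each library. Striated muscle also expresses DES, and its values are given with those of the other cell types.

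TPM1 (ENSGALG00000003521, chromosome 10 from 3667602 to 3687521, minus strand) encodes a tropomyosin, the coiled coil that lies along actin. Its row had 211 reads in shLSD1 and 219 reads in Blank, a log2 ratio of 0.029 (95% interval -0.25 to 0.31). The same-strand model, whose description in the files is that of a tropomyosin domain, had 4257 reads in shLSD1 and 4511 in Blank. Row and model together had 4468 reads in shLSD1 and 4730 in Blank, a log2 ratio of 0.00035 (95% interval -0.059 to 0.060). The row held 4.72% of these reads in shLSD1 and 4.63% in Blank, so both libraries divided their reads between row and model in nearly the same way. A model on the opposite strand inside TPM1 had 394 reads in shLSD1 and 475 in Blank, and whether the counting used strand is not stated.

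CALD1 (ENSGALG00000013071, chromosome 1 from 62400842 to 62587151, plus strand) encodes caldesmon, which binds actin and calmodulin and holds back the myosin motor. Its row had 29 reads in shLSD1 and 45 reads in Blank, a log2 ratio of -0.54 (95% interval -1.28 to 0.15) that holds 0. With the same-strand model, described in the files by its caldesmon domain, it had 1805 reads in shLSD1 and 2136 in Blank. On that count the log2 ratio was -0.16 (95% interval -0.25 to -0.069), lower in shLSD1 by more than counting error but closer to 0 than the ratio of the row. The row held 1.61% of the combined reads in shLSD1 and 2.11% in Blank.

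MYH11 (ENSGALG00000006520, chromosome 14 from 7557638 to 7614129, minus strand) encodes the smooth muscle myosin heavy chain and is the most specific smooth muscle marker of the list. Its row had 0 reads in shLSD1 and 3 reads in Blank, both at or under the 3 reads that a count of 0 allows, so no fold is given. The same-strand model, whose description holds the myosin head and tail domains, had 54 reads in shLSD1 and 85 in Blank. Row and model together had 54 reads in shLSD1 and 88 in Blank, a log2 ratio of -0.62 (95% interval -1.14 to -0.12). The model alone had a log2 ratio of -0.57 (95% interval -1.09 to -0.063), just under 1.5-fold, so the 3 reads of the row decide on which side of that threshold MYH11 falls.

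MYL9 (ENSGALG00000028567, chromosome 20 from 453446 to 460971, minus strand) encodes the regulatory light chain that MYLK phosphorylates. Its row holds 0 reads in both libraries. Its same-strand model had 7 reads in shLSD1 and 11 in Blank, or 0.236 FPKM in shLSD1 and 0.349 FPKM in Blank (reads scaled by gene length and library total). That is too few reads for a ratio (95% interval of the log2 ratio -2.17 to 0.93), so this depth could not show a difference for MYL9.

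TAGLN (ENSGALG00000011902, chromosome 24 from 5229236 to 5232028, plus strand) encodes transgelin or SM22, an actin-binding protein that is abundant in smooth muscle. It had 1 read in shLSD1 and 1 read in Blank, and a model of exactly the same extent on the same strand had 0 reads in each. With both models at so few reads, neither a level nor a ratio of TAGLN can be read from these libraries.

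The row named ACTG2 (ENSGALG00000006343, chromosome 6 from 18777069 to 18785435, minus strand) is listed at 0 reads in each library. By its name it would encode the gamma actin of enteric smooth muscle. In the files it lies between STAMBPL1 and FAS, and in the RefSeq annotation of assembly GRCg7b the gene between STAMBPL1 and FAS is ACTA2, the alpha actin of vascular and peritubular smooth muscle. RefSeq lists ACTG2 on chromosome 22 between STAMBP and DGUOK. The values at the chromosome 6 row are therefore those of the place where RefSeq has ACTA2, and the name in the files and the RefSeq name do not match.

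The same-strand model over this chromosome 6 row, described in the files by an actin domain, had 354 reads in shLSD1 and 197 reads in Blank. That is 42.9 CPM in shLSD1 and 22.6 CPM in Blank, a log2 ratio of 0.93 (95% interval 0.67 to 1.19), or 1.90-fold higher in shLSD1. Among the covered genes and rows this was the furthest from 0 on the higher side. The model reaches beyond the row and runs opposite to a second model of 2529 reads in shLSD1 and 2691 in Blank, whose log2 ratio was -0.0070 (95% interval -0.086 to 0.072). Reads of the 2 strands cannot be told apart if the counting did not use strand.

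Between STAMBP and DGUOK on chromosome 22 the files list an unnamed model with an actin domain (2802958 to 2805687, plus strand), which the rule by name does not take in and which was singled out after its values were seen. It had 7010 reads in shLSD1 and 5175 reads in Blank, or 850 CPM in shLSD1 and 593 CPM in Blank. The log2 ratio was 0.52 (95% interval 0.47 to 0.57), above 0 by far more than counting error and under 1.5-fold. No other model overlaps it on either strand. Muscle actins are nearly identical in protein sequence. Whether their transcripts are alike enough for reads of one to be placed on another was not tested. The counts of single muscle actin genes remain uncertain in that respect.

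**Figure D2:**
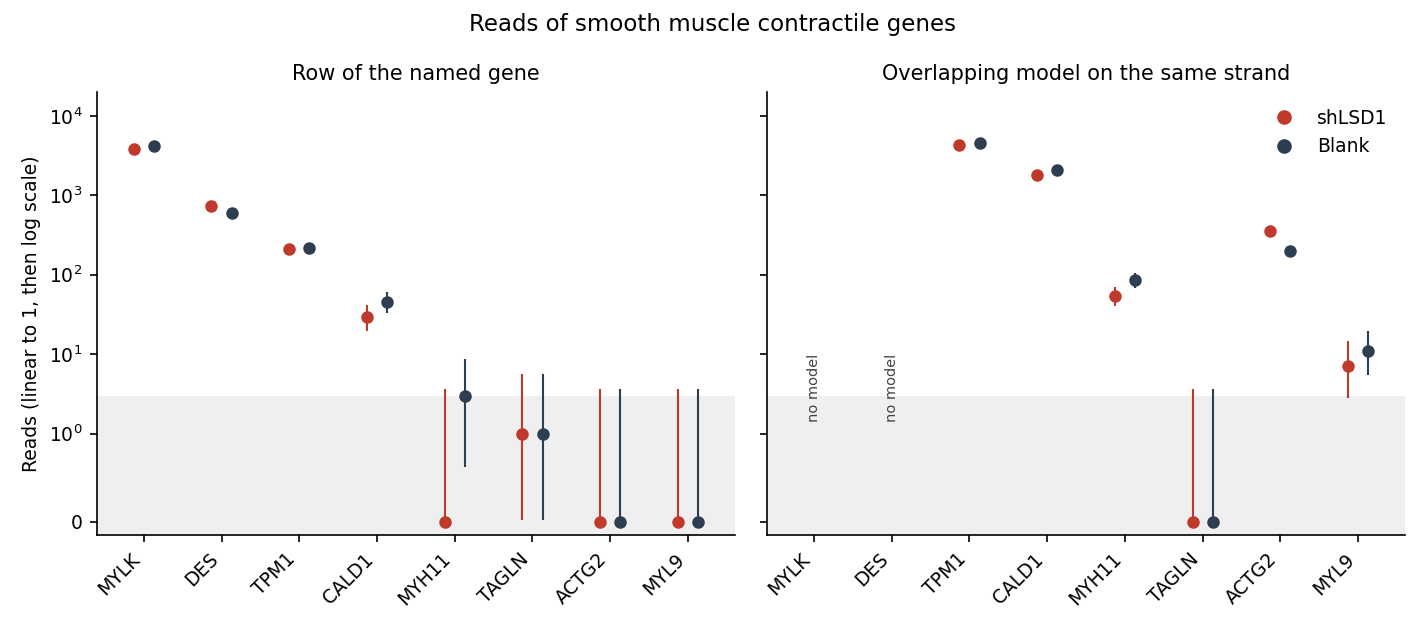
Reads in shLSD1 (red) and Blank (dark) for the row of each named gene (left) and for its overlapping same-strand model (right), on an axis that is linear to 1 read and logarithmic above. Bars are exact Poisson 95% intervals and the grey band marks counts up to 3 reads. MYLK and DES have no same-strand model, and the model over the row named ACTG2 is higher in shLSD1, with 354 against 197 reads.

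When each gene was counted together with its same-strand models, 6 of the 8 genes had at least 20 reads, of which 3 were above 0 and 3 below 0. The row named ACTG2 was higher and MYH11 lower in shLSD1 by 1.5-fold or more, and 0 of the 6 were 2-fold apart. Over the 10096 protein-coding genes counted in the same way, 11.7% were 1.5-fold or more apart (6.02% higher and 5.69% lower) and 3.43% were 2-fold or more apart. Of the 5 contractile genes that had at least 200 reads, 1 was higher by 1.5-fold or more and 0 were lower. At that depth, 2.86% of 6198 protein-coding genes were 1.5-fold apart, 1.31% higher and 1.55% lower. The summed reads were 11272 in shLSD1 and 11886 in Blank, a log2 ratio of 0.0060 (95% interval -0.031 to 0.043). The median was -0.0065 against -0.023 over all protein-coding genes counted in this way. The reads at the row named ACTG2 came from its model, which reaches beyond the row (reciprocal overlap 30.9%). MYH11 passed 1.5-fold only with the 3 reads of its row. MYLK and TPM1 lay within 0.08 of 0. With 1 library a group, these differences among the genes have no replicate check.

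**Figure D3:**
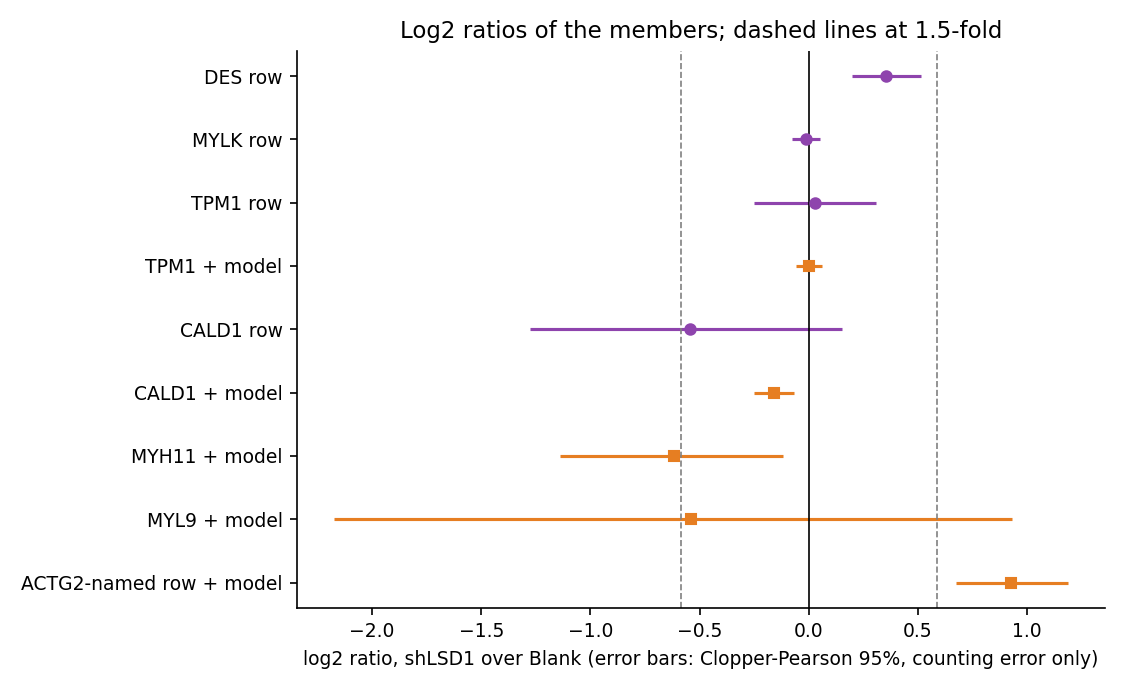
Log2 ratio of shLSD1 to Blank for rows (purple circles) and for rows with their same-strand models (orange squares), with Clopper-Pearson 95% intervals for counting error. The row named ACTG2 with its model lies at 0.93 beyond the 1.5-fold line, DES lies at 0.35, MYLK and TPM1 lie at 0 and MYH11 with its model lies at -0.62.

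Levels between genes were compared per length, on the deposited FPKM scale. DES had 65.0 FPKM in shLSD1 and 50.7 in Blank, and MYLK had 56.2 in shLSD1 and 56.6 in Blank. DES was above MYLK in shLSD1, where their Poisson 95% intervals were apart (60.4 to 69.9 for DES and 54.5 to 58.0 for MYLK). In Blank, MYLK stood above DES, and the ends of the intervals met (54.9 to 58.4 for MYLK and 46.8 to 55.0 for DES). Intervals that meet do not by themselves place a difference within counting error. Of the rows with reads, 92.9% in shLSD1 and 91.2% in Blank had a lower FPKM than DES.

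The row of TPM1 followed with Poisson 95% intervals of 10.4 to 13.7 FPKM in shLSD1 and 10.2 to 13.4 in Blank. The row of CALD1 had 1.39 FPKM in shLSD1 and 2.03 in Blank, below the row of TPM1 by more than counting error. Both genes are covered by a same-strand model, so this is an order of rows and not of gene levels. The model over TPM1 had 135 FPKM in each library, and the model over CALD1 had 50.8 FPKM in shLSD1 and 56.4 in Blank, in each case above the row of the same gene. The model over MYH11 had 0.683 FPKM in shLSD1 and 1.01 in Blank, well under TPM1 and CALD1. The model over the row named ACTG2 had 12.2 FPKM in shLSD1 and 6.38 in Blank, while the actin-domain model on chromosome 22 had 609 in shLSD1 and 424 in Blank.

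A list of paralogs of the smooth muscle genes was compared with them in level. ACTG1, the cytoplasmic gamma actin, had 67.0 FPKM in shLSD1 and 55.0 in Blank, above the model over the row named ACTG2 and below the actin-domain model on chromosome 22. The model over MYH10, a further non-muscle myosin heavy chain, had 1.17 FPKM in shLSD1 and 1.29 in Blank, and the kinase paralog MYLK3, with 1.78 FPKM in shLSD1 and 2.01 in Blank, was below MYLK. ACTB, the cytoplasmic beta actin, had 6148 FPKM in shLSD1 and 5591 in Blank, the highest level of that list, with a log2 ratio of 0.13 (95% interval 0.12 to 0.15). MYH9, the non-muscle myosin heavy chain, had 621 FPKM in shLSD1 and 614 in Blank, against under 1.1 for the model over MYH11. MYL12A, a light chain of non-muscle myosin and a paralog of MYL9, had 365 FPKM in shLSD1 and 358 in Blank. MYH9 and MYL12A have no same-strand model, while MYH11 and MYL9 are covered by one. Reads counted on neither row nor model could add to these gaps in level, which was not tested. TAGLN2 had 10.5 FPKM in shLSD1 and 9.61 in Blank, from 151 reads in shLSD1 and 146 in Blank. TAGLN is not set beside it, because no level of TAGLN can be read from these libraries. Of the 8 paralogs with at least 20 reads, TPM3 was 1.5-fold or more higher (1 of 8, against 7.04% of all rows) and 0 were lower (6.46% of all rows), with a median log2 ratio of 0.13. Counted with models, 0 of 11 were 1.5-fold apart (11.7% of all protein-coding genes counted with models) and the median was 0.033.

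**Figure D4:**
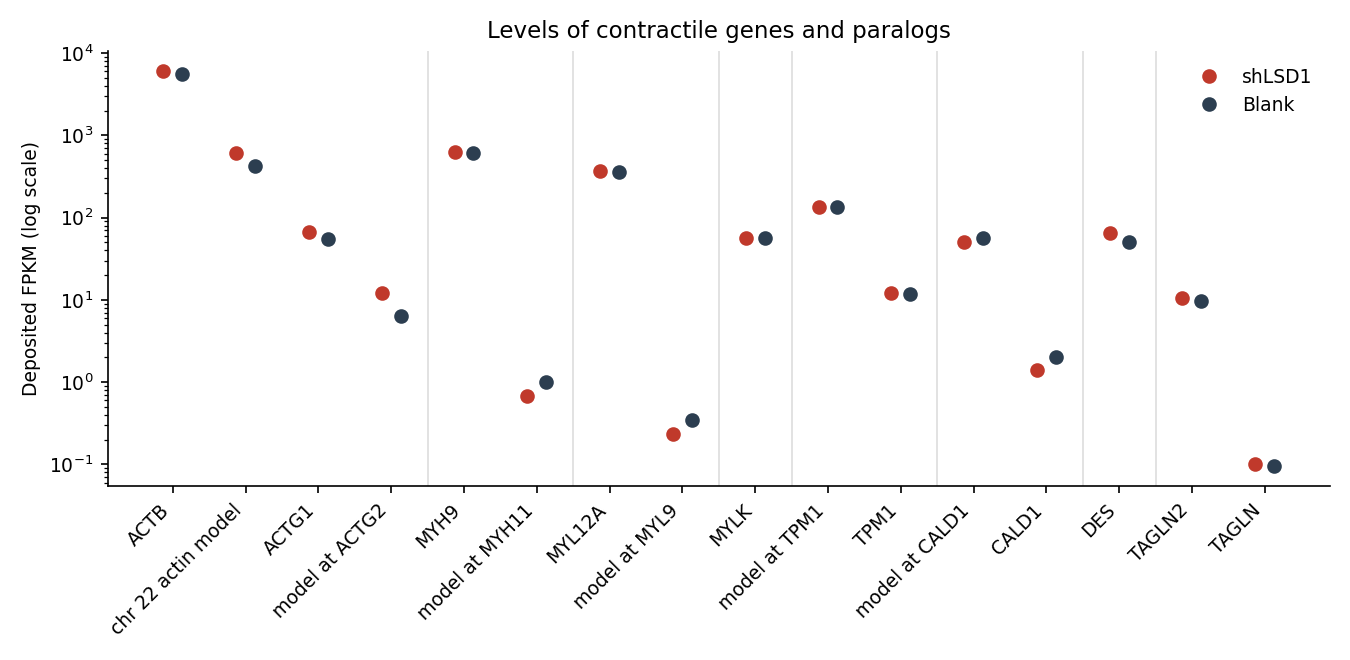
Deposited FPKM (log scale) in shLSD1 (red) and Blank (dark) for actins, myosin heavy chains, myosin light chains, MYLK, tropomyosin, caldesmon, desmin and transgelins, with 1 library a group and no error bars. ACTB, MYH9 and MYL12A lie above the models over the rows named ACTG2, MYH11 and MYL9 by more than 10-fold, and the actin-domain model on chromosome 22 lies between ACTB and ACTG1. Reads shared by a row and its model may be counted on neither, so covered genes can be understated.

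The other genes of the contractile apparatus were taken from a list of 36 genes of thin filaments, dense bodies and adhesion plaques, of which 27 matched a row. Of the 14 with at least 20 reads, 2 were higher and 3 were lower by 1.5-fold or more, with a median log2 ratio of 0.066. These counts stand beside the background of 7.04% higher and 6.46% lower over all rows. Matching was by symbol or older symbol, so genes listed under another name are left out of these counts. TPM2 found no match, although the row named BRT-1 is described as tropomyosin 2. PDLIM3, a PDZ and LIM protein that binds alpha-actinin, had 179 reads in shLSD1 and 98 in Blank, a log2 ratio of 0.95 (95% interval 0.59 to 1.32), with no same-strand model over it. TPM3 had 171 reads in shLSD1 and 117 in Blank, a log2 ratio of 0.63, but with its model 4546 in shLSD1 and 4669 in Blank, a log2 ratio of 0.044.

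The 3 on the lower side, ITGA8, MYOM1 and NEXN, had few reads on their rows. ITGA8, an integrin of mesenchymal and smooth muscle cells, had 15 reads in shLSD1 and 28 in Blank, but with its model 1305 in shLSD1 and 1304 in Blank. MYOM1 had 14 reads in shLSD1 and 23 in Blank, and NEXN 10 in shLSD1 and 18 in Blank, with intervals that held 0. PDLIM1 had the highest FPKM of the list, 492 in shLSD1 and 398 in Blank, with a log2 ratio of 0.30 (95% interval 0.25 to 0.36). Counted with models, 22 of the 27 genes had at least 20 reads. Of these, PDLIM3, ZYX and FHL1 (3 genes) were higher and MYOM1 and NEXN (2 genes) lower by 1.5-fold or more. The median was 0.095, and the interval of FHL1 (-0.46 to 2.54) held 0. Over all protein-coding genes counted with models, 6.02% were higher and 5.69% lower.

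Genes that set the phosphorylation of the light chain were compared next. Of 6 with at least 20 reads, 1 was at least 1.5-fold higher (7.04% of all rows) and 0 were lower (6.46%), with a median log2 ratio of 0.011, and of -0.050 over 14 genes counted with models. PPP1CB, the catalytic subunit of myosin phosphatase, had the highest level, 239 FPKM in shLSD1 and 259 in Blank (log2 ratio -0.12, 95% interval -0.19 to -0.042). PPP1R12B, a myosin-targeting subunit of that phosphatase, had 41 reads in shLSD1 and 16 in Blank, a log2 ratio of 1.41, but with its models 1789 in shLSD1 and 1555 in Blank, a log2 ratio of 0.28. Among receptors and channels of smooth muscle, 0 of 8 were at least 1.5-fold apart (13.5% of all rows), with a median of 0.16. Counted with models, 1 of 13 was higher and 0 were lower, with a median of 0.11. The shares over all protein-coding genes counted with models were 6.02% higher and 5.69% lower. That gene was ITPR1, a calcium release channel, with 16 reads in shLSD1 and 4 in Blank, a log2 ratio of 1.95 (95% interval 0.45 to 4.12). EDNRA, the endothelin receptor of smooth muscle, led that list with 138 FPKM in shLSD1 and 135 in Blank (log2 ratio 0.035).

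SRF, the factor that binds CArG boxes in the promoters of contractile genes, had 1952 reads in shLSD1 and 1691 in Blank, a log2 ratio of 0.29 (95% interval 0.19 to 0.38). MYOCD, its smooth muscle coactivator, is listed at 0 in each library, with 15 reads in shLSD1 and 15 in Blank on its overlapping model. In the list of SRF, its partners and TGF-beta genes, 1 of 6 rows with at least 20 reads was at least 1.5-fold higher (7.04% of all rows) and 0 were lower (6.46%), with a median of 0.34, and of 0.24 over 19 genes counted with models. That row was ELK3, an ETS partner of SRF, with 21 reads in shLSD1 and 8 in Blank, and with its model 23 in shLSD1 and 14 in Blank (95% interval of the log2 ratio -0.22 to 1.87). SMAD3 had the highest FPKM there, 93.4 in shLSD1 and 92.3 in Blank.

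Among early targets of SRF, ANKRD1 and FOS lay in opposite directions. ANKRD1, which encodes an ankyrin repeat protein of muscle and is also a target of YAP, had 286 reads in shLSD1 and 98 in Blank, a log2 ratio of 1.62 (95% interval 1.29 to 1.97). FOS had 925 reads in shLSD1 and 1607 in Blank, a log2 ratio of -0.71 (95% interval -0.83 to -0.60). EGR1 had 2483 reads in shLSD1 and 2541 in Blank, a log2 ratio of 0.049 (95% interval -0.031 to 0.13). The 4 rows with at least 20 reads thus held 1 at least 1.5-fold higher (7.04% of all rows) and 1 lower (6.46%), with a median of -0.21. Counted with models, the median over 5 genes turned to 0.049. Again 1 was higher (6.02% of all protein-coding genes counted with models) and 1 lower (5.69%).

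**Figure D5:**
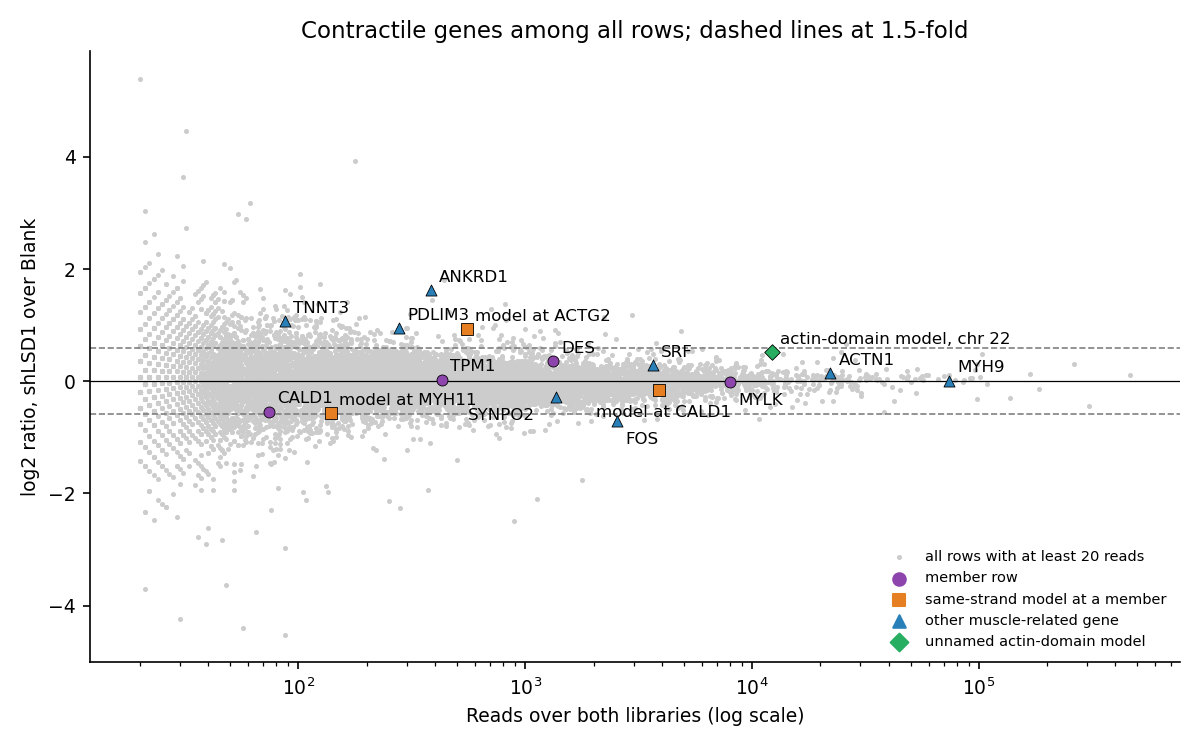
Log2 ratio of shLSD1 to Blank against reads over both libraries (log scale) for the 12081 rows with at least 20 reads (grey), with contractile rows, their models and other muscle-related genes marked and dashed lines at 1.5-fold. The spread of the grey points narrows with depth, and ANKRD1 (1.62), PDLIM3 (0.95) and the model over the row named ACTG2 (0.93) lie at its upper edge.

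Markers of other cell types that a testis digest can hold moved in part with these values, and their part in the results was not tested. Striated muscle markers had 110 reads in shLSD1 and 64 in Blank over 11 matched genes, a log2 ratio of 0.86 (95% interval 0.41 to 1.33), of which ACTA1 and MYH1A are at 0 in each library. Of these, TNNT3, a troponin of fast skeletal muscle, had 58 reads in shLSD1 and 29 in Blank, and the model over ACTA1, the skeletal alpha actin, had 142 reads in shLSD1 and 80 in Blank (log2 ratio 0.91, 95% interval 0.51 to 1.32). DES, PDLIM3 and ANKRD1 are also expressed by striated muscle. MYOD1 and MYOG, which define skeletal myoblasts, had 4 and 0 reads in shLSD1 and 1 and 1 in Blank.

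Pericyte markers had 7284 reads in shLSD1 and 5565 in Blank over 5 matched genes, a log2 ratio of 0.47 (95% interval 0.42 to 0.52), most of it in CSPG4 with 7068 in shLSD1 and 5398 in Blank. PDGFRB and KCNJ8 are at 0 in each library, and the model over PDGFRB had a log2 ratio of 0.13 from 2377 reads in shLSD1 and 2302 in Blank. Counted with models, the pericyte markers had 9694 reads in shLSD1 and 7886 in Blank, a log2 ratio of 0.38 (95% interval 0.34 to 0.42). Of 6 matched fibroblast markers 5 are at 0, and LUM had 4710 reads in shLSD1 and 6098 in Blank, a log2 ratio of -0.29. With their models the fibroblast markers had a log2 ratio of 0.084, and those over COL3A1 and DCN lay in opposite directions, at 0.21 and -0.38. The Sertoli markers had 2031 reads in shLSD1 and 1690 in Blank, led by CLDN11, and the Leydig markers 544 in shLSD1 and 719 in Blank, led by CYP17A1.

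Endothelial markers had 84 reads in shLSD1 and 121 in Blank over 6 genes, a log2 ratio of -0.44 (95% interval -0.86 to -0.031), with CDH5 and ERG at 0 and PECAM1 the highest. With the model over ERG, which had 285 reads in shLSD1 and 218 in Blank, the sum was 369 in shLSD1 and 339 in Blank, and the log2 ratio turned to 0.20 (95% interval -0.012 to 0.42). Germ cell markers, which would define the labelled cell type, had 35 reads in shLSD1 and 55 in Blank over 7 matched genes, with NANOG at 0 and DDX4 at 11 reads in shLSD1 and 23 in Blank. With models they had 285 reads in shLSD1 and 364 in Blank, most of them on the model over SYCP3. In CPM the germ cell rows held 4.24 in shLSD1 and 6.30 in Blank, and with models 34.6 in shLSD1 and 41.7 in Blank. CPM is not scaled by gene length, so sums of different lists also depend on the number and lengths of their genes. The 8 contractile rows held 585 CPM in shLSD1 and 572 CPM in Blank. Most of that row sum was MYLK, with 468 CPM in shLSD1 and 472 CPM in Blank, a gene that cells other than muscle also use. With models the 8 contractile genes held 1367 CPM in shLSD1 and 1361 CPM in Blank. On that count TPM1 was the largest, with 542 CPM in shLSD1 and 542 CPM in Blank. TAGLN, MYH11 and MYL9 were near 0 on their own rows, and their same-strand models held few reads too. The model had 0 reads in each library at TAGLN, and 7 in shLSD1 and 11 in Blank at MYL9. At MYH11 it had 54 in shLSD1 and 85 in Blank. Reads shared by a row and its model may be missing from both, so these low counts are not gene levels. Other members were higher, with DES at 65.0 FPKM in shLSD1 and 50.7 in Blank and MYLK at 56.2 and 56.6. The models over TPM1 and CALD1 were at 135 and 50.8 FPKM in shLSD1. DES, MYLK, TPM1 and CALD1 are also used by cells other than smooth muscle. Where RefSeq has ACTG2, the unnamed actin-domain model on chromosome 22 had 609 FPKM in shLSD1 and 424 in Blank. Where RefSeq has ACTA2, the model on chromosome 6 had 12.2 FPKM in shLSD1 and 6.38 in Blank. Whether reads of other actins were placed on these models was not tested. The presence of peritubular myoid cells can be neither shown nor denied from these counts.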

How the data were processed

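The deposited tables hold raw counts as whole numbers and the FPKM of each gene, both made by the authors. The FPKM equals the count divided by gene length and by a total 0.461% (shLSD1) and 0.646% (Blank) above the listed sum. Libraries were made from 1 µg of total RNA. The submitters' processing notes name Bowtie 0.12.2 and the mouse builds mm8 and mm9, while the rows are Ensembl chicken genes and 9548 assembled models. The build of the coordinates and the counting tool are not given in the sources used here. The deposited comparison table, with the authors' fold changes and p-values, was not used, and 4 columns of values that match no sample label were left out.

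Log2 ratios (shLSD1 over Blank) used the listed totals with a prior count of 0.5, shared in proportion to library size. Clopper-Pearson and Poisson 95% intervals cover counting error only, since each group is 1 library. PCR copies count as separate reads, which can make these intervals too narrow. A count of 0 was taken to allow 3 reads. With 1 library a group no model was fitted across genes and no p-value is given. Same-strand overlap meant at least 1 shared base. Genes named are the 10 chosen, listed genes with at least 20 reads that were at least 1.5-fold apart, the highest by FPKM of each list, and paralogs. SRF, MYOCD, EGR1, the markers of other cell types beyond these, and genes called with their models were named after their values were seen. The genes and lists were chosen with earlier results of these data known. Older symbols and neighbouring genes came from the RefSeq table of assembly GRCg7b, used for names and order only. Alternatives used edgeR 4.0.16, DESeq2 1.42.0 and R 4.3.3, and the rest pandas 2.3.3, scipy 1.17.1 and numpy 2.4.6 under Python 3.11.15, with figures from matplotlib 3.10.9. The calculation of ratios and intervals was run on simulated Poisson counts. These share the assumption behind the intervals and hold no PCR copies or reads lost between models. The run therefore checks the calculation and not whether the intervals suit these libraries. Planned promoter motif and protein identity comparisons were not run, because no sequence table was used here.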

Additional observations from a re-analysis of the deposited data

How the results depend on the processing

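Scaling was repeated by edgeR's TMM, DESeq2 size factors, the upper quartile or totals that leave out the 20 most abundant genes. A prior of 5 reads and FPKM with a pseudocount of 0.1 or 1 were also used. Each of the 4 members with at least 20 reads stayed within the counting interval of its main value. For the row of CALD1 that interval was wide (-1.28 to 0.15), so staying within it says little. Over 8 alternatives each, the log2 ratio ran from 0.34 to 0.38 for DES, -0.026 to 0.013 for MYLK, 0.00035 to 0.055 for TPM1 and -0.56 to -0.16 for CALD1, where -0.16 is the value with its overlapping model. The widest shift of the median of all rows under another scaling was 0.026. The count of members at least 1.5-fold higher was 0 and became 1 with overlapping models; the count lower was 0 and became 1 with overlapping models and 1 with no filter on low counts, which admits MYH11 at 0 and 3 reads. By construction these settings add reads or genes. Counted with models, a 2-fold threshold gave 0 higher and 0 lower, and at least 200 reads gave 0 lower. In alternatives chosen after seeing the data, the row named ACTG2 with its model ran from 0.91 to 0.95 and MYH11 from -0.63 to -0.57. Members with a same-strand model were 6, and 3 at a reciprocal overlap of at least 90%, since that asks for near-equal extent. The promoter and protein alternatives were not run. No paired analysis was possible because neither group holds more than 1 library. The rows of MYL9, TAGLN and MYH11 hold at most 3 reads a library, too few for a ratio.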

Other observations

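The row named BRT-1, described in the files as tropomyosin 2, had 741 reads in shLSD1 and 686 in Blank, a log2 ratio of 0.19 (95% interval 0.042 to 0.35). TPM4 with its model had 859 reads in shLSD1 and 773 in Blank, a log2 ratio of 0.23 (95% interval 0.093 to 0.38), while the interval of its row alone (-0.31 to 0.62) held 0. TPM3 with its model had 4546 reads in shLSD1 and 4669 in Blank, a log2 ratio of 0.044 (95% interval -0.015 to 0.10).

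Actin-domain models did not all lie on the same side. A model that runs opposite to ACTG1 on chromosome 18 (9470659 to 9472703) had 12 reads in shLSD1 and 64 in Blank, a log2 ratio of -2.29 (95% interval -3.36 to -1.43), while the ACTG1 row on the other strand had 1013 in shLSD1 and 882 in Blank, a log2 ratio of 0.28. This model was picked after its values were seen.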
